A study of Homo sapiens with 8 samples.

Results

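Metallothionein genes and MTF1, the transcription factor that controls them, were followed in ovarian cancer cells after knockdown of the long noncoding RNA UCA1. A probe was a member when the RefSeq accession given for it in the array files mapped to MT1A, MT1B, MT1E, MT1F, MT1G, MT1H, MT1M, MT1X, MT2A or MTF1. This gave 12 of the 58201 probes of the array, for 10 of its 47753 genes. Of these 12, 11 read metallothioneins and 1 read MTF1.

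The cells were OAW42-R, a chemoresistant line derived from the ovarian carcinoma line OAW42, and all arrays come from this 1 line. They were transfected with InterferIn and 20 nM of either a pool of nontargeting siRNAs (sictrl) or UCA1 siRNAs number 2 and 4 together (siUCA1). Both groups have 4 arrays, whose replicates the labels name A1, M2, A2 and A3 and the methods call independent experiments. The labels give 24 h between transfection and RNA extraction, while the methods give a longer time, so that the time is uncertain. RNA was measured on 1-colour arrays of 60901 non-control spots, all on 1 slide and scanned in 1 run. With 4 arrays in a group, small differences cannot be resolved.

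Metallothioneins are small, cysteine-rich proteins that bind zinc and copper, and can also bind cadmium and platinum. Free zinc activates MTF1, which binds metal response elements in the promoters of the MT1 and MT2A genes and of the zinc exporter gene SLC30A1. In ovarian and other carcinoma cells, metallothioneins have long been studied in connection with resistance to platinum drugs.

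Values are log2 of the processed signal (a background-subtracted intensity) minus the 75th percentile of the array, so that 0 is the array's own 75th percentile. They compare arrays for 1 probe, not the levels of different probes. The surface trend that Feature Extraction fitted and removed had a root mean square of 0.321 on sictrl A3 and 0.287 on siUCA1 A1, against 0.0737 to 0.0943 on the other arrays. Results were therefore also computed without these 2 arrays. For testing, a probe had to exceed background clearly in 4 of 4 arrays of sictrl or of siUCA1, which left 19045 probes. Adjusted p are from limma's moderated test with Benjamini-Hochberg adjustment over all of them. A probe with an adjusted p under 0.05 is called lower or higher.

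UCA1, the target of the siRNAs, was read by 2 probes. The brighter one stood at 8.35, 8.37, 8.60 and 7.48 in sictrl A1, M2, A2 and A3, and at 3.68, 2.59, 3.02 and 3.34 in the siUCA1 arrays of the same names. Every siUCA1 array lay far below every sictrl array, as the labels say. The log2 fold change was -5.04 (standard error 0.29, limma adjusted p = 0.000116), which left 3.03% of the sictrl signal, and the other probe changed by -4.76.

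The cells carried epithelial markers of an ovarian carcinoma line in both groups. PAX8, EPCAM, KRT8, KRT18, KRT19 and CDH1 were well above background on all 8 arrays, while the probes of MUC16 and WT1 were well above background on none. Of the fibroblast markers, 0 of 5 genes were tested, and the COL1A1 probe was well above background on 2 sictrl and 3 siUCA1 arrays. VWF was the 1 endothelial marker tested (log2 fold change -0.08). CDH1, which encodes E-cadherin, fell by 0.81 (limma adjusted p = 0.0152), a call lost only with no detection filter (0.179). The other 5 epithelial genes tested were not called, though EPCAM (0.50, limma adjusted p = 0.0678) passed without siUCA1 A1 (0.0192), without sictrl A3 and siUCA1 A1 together (0.0205), with the remaining surface trend removed (0.033) and with array weights (0.00783). The part of these marker changes in the metallothionein values was not tested.

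MT1 and MT2A genes lie side by side in a cluster on chromosome 16. The promoters of those that RefSeq's promoter table (GRCh38.p14) holds are printed because the member probes called lower all read genes of this cluster. The table matched 5 of the 10 members, namely MT2A, MT1B, MT1X, MT1H and MTF1, and not MT1A, MT1E, MT1F, MT1G and MT1M. Each line gives the 250 bases before the gene's start, 5′ to 3′ on the strand of the gene, and capitals mark matches of the metal response element core, searched as TGCACNC and TGCGCNC on both strands.
MT2A, chr16:56608334-56608583, plus strand: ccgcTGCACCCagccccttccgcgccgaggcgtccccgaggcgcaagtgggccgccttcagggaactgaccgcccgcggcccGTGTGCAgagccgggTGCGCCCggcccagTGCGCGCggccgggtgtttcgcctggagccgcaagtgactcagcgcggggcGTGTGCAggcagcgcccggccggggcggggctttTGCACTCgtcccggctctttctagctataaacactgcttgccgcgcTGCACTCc
MT1B, chr16:56651636-56651885, plus strand: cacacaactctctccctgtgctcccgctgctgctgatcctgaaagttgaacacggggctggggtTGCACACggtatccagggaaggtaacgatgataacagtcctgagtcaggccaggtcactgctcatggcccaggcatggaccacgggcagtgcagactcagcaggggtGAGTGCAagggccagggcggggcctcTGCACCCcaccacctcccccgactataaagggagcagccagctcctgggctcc
MT1X, chr16:56682220-56682469, plus strand: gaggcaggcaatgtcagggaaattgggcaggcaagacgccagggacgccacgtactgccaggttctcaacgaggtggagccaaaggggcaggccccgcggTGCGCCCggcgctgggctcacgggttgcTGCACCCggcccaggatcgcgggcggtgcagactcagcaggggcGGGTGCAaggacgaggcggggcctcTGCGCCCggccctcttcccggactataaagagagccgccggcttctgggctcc
MT1H, chr16:56669564-56669813, plus strand: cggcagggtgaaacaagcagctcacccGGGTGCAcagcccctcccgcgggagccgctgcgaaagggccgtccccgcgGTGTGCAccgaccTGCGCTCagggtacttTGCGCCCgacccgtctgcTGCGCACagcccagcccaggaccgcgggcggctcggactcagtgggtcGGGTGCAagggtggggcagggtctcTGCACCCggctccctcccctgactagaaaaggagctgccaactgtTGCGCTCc

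The core matched 7 times before MT2A, 3 times before MT1B, 4 times before MT1X and 8 times before MT1H. No match overlapped another. Of the 35116 promoters in the table, 24.8% hold at least 1 match in the same window, 1.58% at least 3, 0.37% at least 4 and 0.0313% at least 7. MTF1, on chromosome 1, has 0 matches in its own window. A match is a stretch of letters, and binding was not measured.

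**Figure D1:**
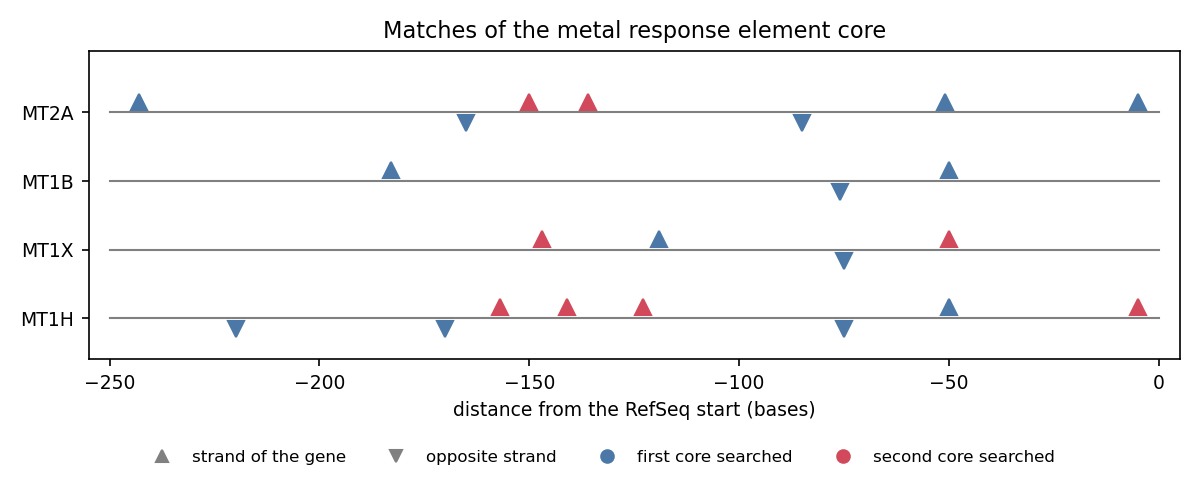
Position of each match of the metal response element core in the 250 bases before the RefSeq start of 4 metallothionein genes, with the distance from the start in bases on the horizontal axis. Triangles pointing up are matches on the strand of the gene and those pointing down on the opposite strand, blue for TGCACNC and red for TGCGCNC, and each gene has a match that begins 53 or 54 bases before its start.

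Of the 11 metallothionein probes, 7 were tested, and these 7 were well above background on all 8 arrays, so that the filter did not pick them by the group in which they were high. The other 4 probes, 1 each for MT1E (A_21_P0000671), MT1G, MT1H and MT1M, were not well above background on any array. Their values lay between -5.41 and -2.81, and no fold change is given for them. Among the promoters shown above, that of MT1H thus belongs to a gene whose probe gave no signal above background.

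Of the tested metallothionein probes, 4 were called lower in siUCA1 and 0 higher, for MT2A, MT1F and MT1B (2 probes). Over all 19045 probes, 5.90% were called lower (1124) and 5.59% higher (1065). The median log2 fold change of the 7 probes was -0.71, against 0.03 for all probes tested. Median scaling called 647 probes, of which 19.9% were higher, compared with 48.7% of the 2189 called here. All 7 metallothionein fold changes were negative under each of the 4 scalings tried, although that of MT1A was near 0 and turned positive in 3 other settings.

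MT2A, the single MT2 gene and a widely expressed metallothionein, was read by 1 probe (A_23_P106844, NM_005953). It stood at 3.31, 3.73, 3.79 and 3.92 in sictrl A1, M2, A2 and A3, and at 2.57, 2.68, 2.93 and 3.05 in siUCA1 A1, M2, A2 and A3. The lowest sictrl array, A1, was still above the highest siUCA1 array, A3, and replicate A1 was lowest in both groups. The log2 signal of MT2A fell by 0.88 with a standard error of 0.16 (limma adjusted p = 0.0122), to 54.5% of its sictrl signal. The 2-sided exact permutation test gave p = 0.0286, the smallest that 4 arrays against 4 allow. The call held with each array left out in turn and was lost in 1 of 23 alternatives, the one with no detection filter (limma adjusted p = 0.151).

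MT1F, one of the inducible MT1 genes, changed most of the 7 (A_23_P15174, NM_005949). Its values were 1.22, 2.09, 2.06 and 2.03 in sictrl A1, M2, A2 and A3, and -0.43, -0.01, 0.46 and -0.12 in siUCA1 A1, M2, A2 and A3. The groups did not overlap, and sictrl A1 lay apart from the other 3 sictrl arrays, toward siUCA1. The mean and SD of 4 arrays were 1.85 ± 0.42 for sictrl and -0.03 ± 0.37 for siUCA1. MT1F fell by 1.87 on the log2 scale (95% interval -2.43 to -1.32, limma adjusted p = 0.00367), to 27.3% of its sictrl signal. Of all 19045 probes, 27 had a log2 fold change as low or lower, the MT1F probe itself and both UCA1 probes among them. It was called lower in all 23 alternatives, with log2 fold changes between -2.09 and -1.45. With no detection filter the limma adjusted p was only just under the threshold (0.0499).

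MT1B has 2 probes for the same transcript (NM_005947). The first, A_22_P00010235, stood at 0.99, 1.55, 1.66 and 1.52 in sictrl A1, M2, A2 and A3, and at 0.62, 0.75, 0.85 and 0.68 in siUCA1 A1, M2, A2 and A3. The second, A_23_P37983, stood at 1.21, 1.65, 1.63 and 1.93 in the sictrl arrays in the same order, and at 0.56, 0.86, 1.13 and 1.17 in the siUCA1 arrays. For both probes every siUCA1 array was below every sictrl array, with sictrl A1 the lowest of its group, and 9.76% of all probes with a value on every array separated in this direction. The log2 fold changes were -0.71 (limma adjusted p = 0.0204) and -0.68 (adjusted p = 0.0489), or 61.3% and 62.6% of the sictrl signal.

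Leaving out a single array often ended the call of either MT1B probe. Without sictrl M2, sictrl A2, siUCA1 M2, siUCA1 A2 or siUCA1 A3, the first probe had a limma adjusted p of 0.067, 0.0667, 0.0563, 0.0509 and 0.0543. For the second, the call held without sictrl A1 (limma adjusted p = 0.0359) and was lost without sictrl M2 (0.121), A2 (0.119) or A3 (0.0809) and without siUCA1 A1 (0.0733), M2 (0.118), A2 (0.085) or A3 (0.0632). Both lost the call with median scaling (limma adjusted p = 0.0625 and 0.085), normexp (0.0806 and 0.135) and no detection filter (0.235 and 0.358). The second also lost it with the slide row as a block (0.0777), with the remaining surface trend removed (0.0546) and without sictrl A3 and siUCA1 A1 together (0.076). The log2 fold changes stayed negative throughout, between -0.85 and -0.57 for the first and between -0.81 and -0.44 for the second.

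**Figure D2:**
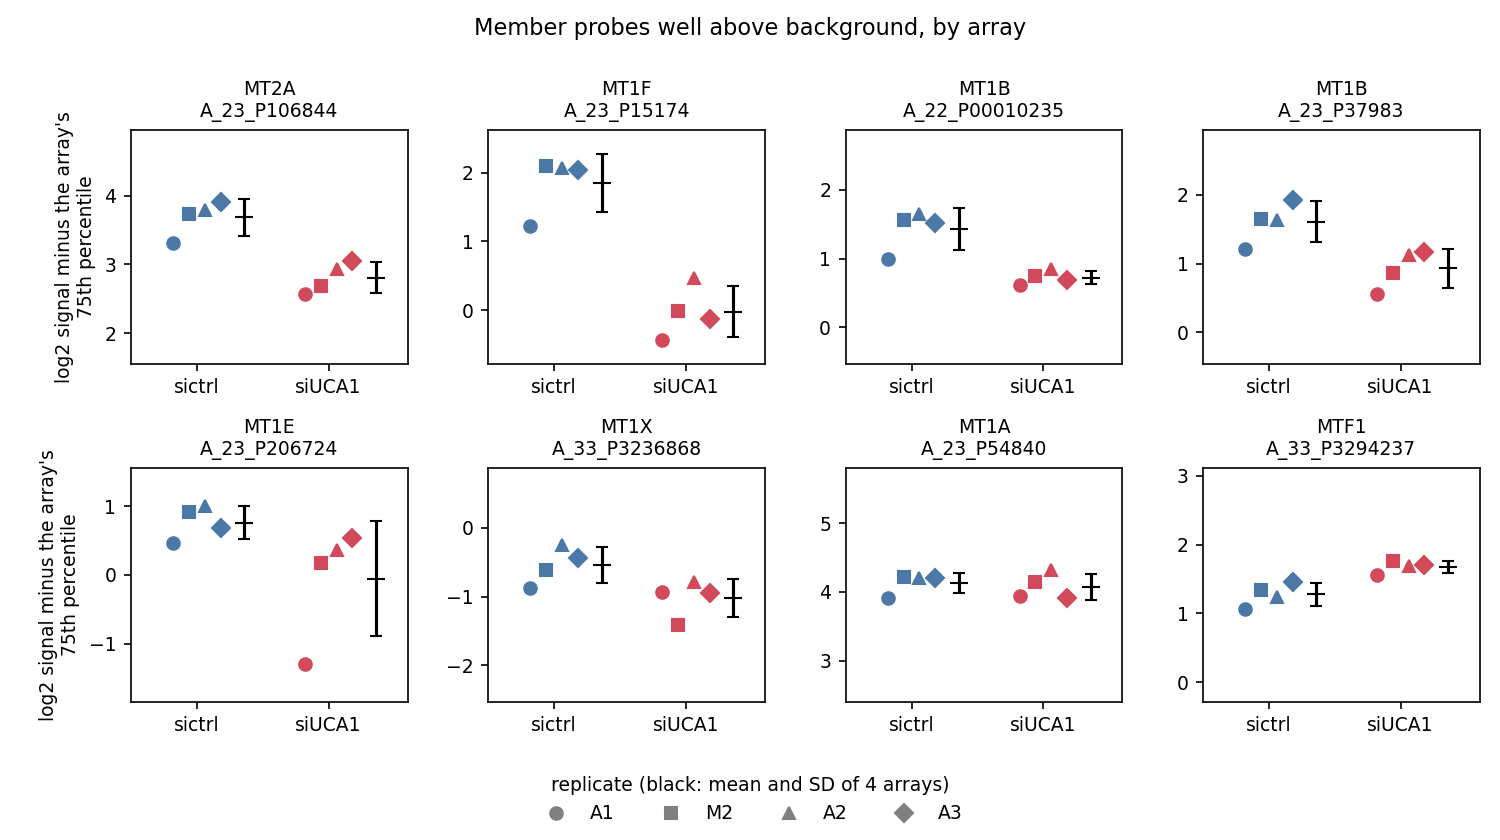
Log2 signal minus the array's 75th percentile of the 8 member probes that were well above background, in sictrl (blue) and siUCA1 (red), with 1 symbol per replicate name and the mean and SD of 4 arrays in black. Every panel spans the same range of the log2 scale. The groups are apart for MT2A, MT1F and both MT1B probes (siUCA1 lower), as for 9.76% of all probes with a value on every array. They are also apart for MTF1 (siUCA1 higher), a direction whose share over all probes was not computed.

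MT1E and MT1X, also MT1 genes with a probe that gave a signal on every array, were not called. A further MT1E probe for the same transcript (A_21_P0000671) was not well above background on any array. MT1E (A_23_P206724, NM_175617) stood at 0.46, 0.92, 0.99 and 0.68 in sictrl A1, M2, A2 and A3, and at -1.29, 0.17, 0.36 and 0.54 in siUCA1 A1, M2, A2 and A3. The groups overlapped, since siUCA1 A3 was above sictrl A1, and siUCA1 A1, an array with a strong surface trend, was far below all others. Its log2 fold change was -0.82 (95% interval -1.65 to 0.02, limma adjusted p = 0.19), and -0.40 without siUCA1 A1 (adjusted p = 0.128). It was -0.42 with normexp, -0.43 without sictrl A3 and siUCA1 A1 together, and -0.62 with array weights, the 1 setting in which it passed (limma adjusted p = 0.0484). It was -0.91 with the remaining surface trend removed in tiles (limma adjusted p = 0.151) and lowest, at -1.02, without siUCA1 A3. What the trend that Feature Extraction had already removed adds to siUCA1 A1's low MT1E value was not tested.

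MT1X (A_33_P3236868, NM_005952) stood at -0.87, -0.60, -0.24 and -0.44 in sictrl A1, M2, A2 and A3, and at -0.93, -1.41, -0.78 and -0.95 in siUCA1 A1, M2, A2 and A3. The groups overlapped in that sictrl A1 lay below siUCA1 A2. The log2 fold change was -0.48 (95% interval -0.87 to -0.08, limma adjusted p = 0.117), and the adjusted p was between 0.0511 and 0.61 over the 23 alternatives. With normexp the log2 fold change was -0.23.

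MT1A (A_23_P54840, NM_005946) showed the least difference between the groups. It stood at 3.91, 4.21, 4.20 and 4.20 in sictrl A1, M2, A2 and A3, and at 3.94, 4.14, 4.32 and 3.91 in siUCA1 A1, M2, A2 and A3. The groups overlapped, with siUCA1 A2 above all sictrl arrays and the other 3 siUCA1 arrays within their range. The log2 fold change was -0.05 with a 95% interval from -0.34 to 0.23 (limma adjusted p = 0.83), an interval that holds no fall as large as that of MT2A. Sictrl A1 was again the lowest of its group, apart from the other 3. The fold change was as near to 0 but positive with array weights, without siUCA1 A3 and without sictrl A3 and siUCA1 A1 together.

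Because the scale is set within each array, 2 member probes can be compared in how much they changed. The 6 other tested metallothionein probes were each set against MT2A with 2-sided exact permutation tests, adjusted over the 6. On every array the ratio of MT1F to MT2A was lower in siUCA1, by 1.00 on average, and that of MT1A to MT2A was higher, by 0.82. Both had a permutation p = 0.0286, the smallest possible, and an adjusted p of 0.0857, so that neither passed. At this smallest p the adjustment depends on how many of the 6 probes reach it, so neither could pass through its own difference alone. The MT1B probes (0.17 and 0.20), MT1E (0.06) and MT1X (0.40) differed less from MT2A, with adjusted p between 0.0857 and 0.971. In settings where more of the 6 probes reached the smallest p, MT1F, MT1A and the second MT1B probe had a permutation adjusted p of 0.0429. These were normexp and leaving out siUCA1 A1, where the MT1F difference from MT2A was smaller, at -0.58 and -0.94. MT1X (difference 0.63) had the same adjusted p with normexp, and MT1E (difference 0.39) had it without siUCA1 A1. The MT1E difference turned negative in 5 settings.

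Correlations between the metallothionein probes differed widely. Over the 8 arrays, Pearson's r between pairs of the 7 probes ranged from 0.377 to 0.973 (median 0.773, 21 pairs), and after each group's mean was removed it ranged from 0.095 to 0.966 (median 0.637). The pairs share the same 8 arrays and, in part, near-identical transcripts, and a probe's binding to the RNA of another member was not tested. Pairs of other probes were not computed for comparison. With every probe centred on its own mean, the mean of the 7 probes was 0.005 in sictrl A1 and 0.48, 0.56 and 0.52 in sictrl M2, A2 and A3. It was -0.74, -0.43, -0.13 and -0.27 in siUCA1 A1, M2, A2 and A3. Replicate A1 was thus the lowest of both groups, and sictrl A1 lay between the other 3 sictrl arrays and the siUCA1 arrays.

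**Figure D3:**
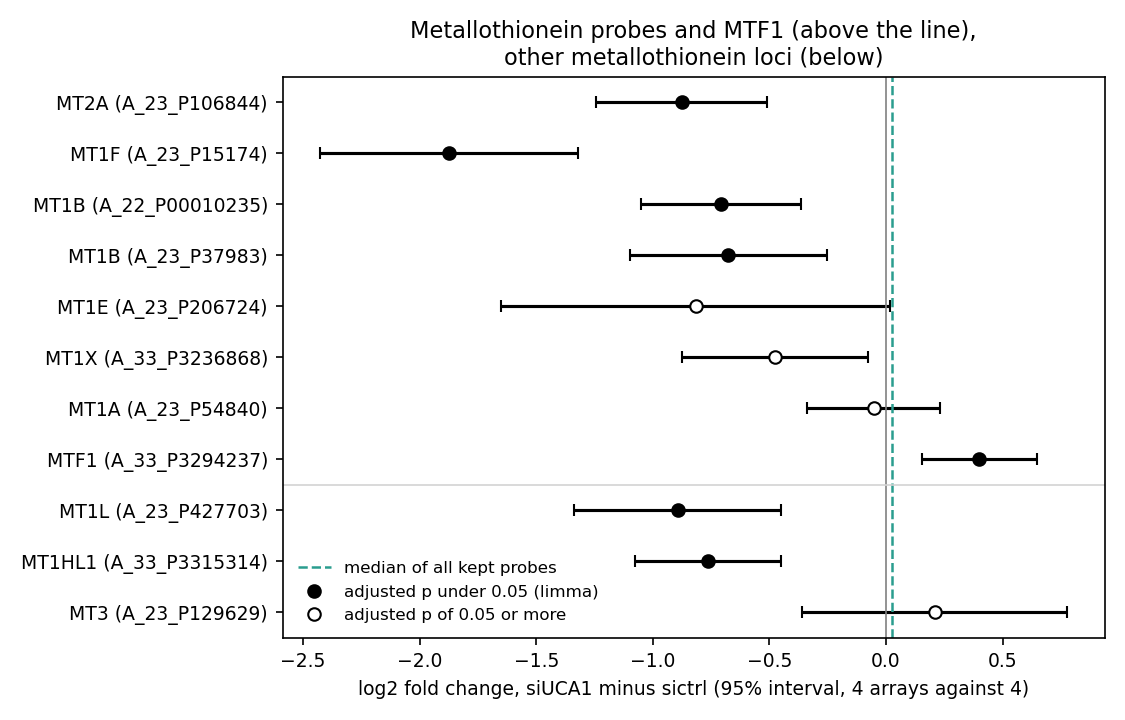
Log2 fold change of siUCA1 against sictrl for each tested probe of the MT1 and MT2A genes, MTF1 and 3 further metallothionein loci, with 95% intervals from limma (4 arrays against 4). Filled points have an adjusted p under 0.05, and the dashed line marks the median of all probes tested at 0.03, with MT1F at -1.87 farthest from it.

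Among other metallothionein loci, 6 genes had a probe and 3 were tested. MT1L, a pseudogene of the cluster (A_23_P427703), was at -0.04, 0.61, 0.45 and 0.37 in sictrl A1, M2, A2 and A3 and at -0.89, -0.46, -0.11 and -0.73 in siUCA1 A1, M2, A2 and A3. The groups did not overlap, with siUCA1 A2 the nearest to sictrl A1. MT1L fell by 0.89 (limma adjusted p = 0.0223), and this call was lost without sictrl M2 (0.0697), sictrl A2 (0.0704), siUCA1 M2 (0.0561) or siUCA1 A3 (0.062), with normexp (0.085) and with no detection filter (0.207). MT1HL1, a locus similar to MT1H (A_33_P3315314), fell by 0.76 (limma adjusted p = 0.0115) and was called with each array left out, but not with no detection filter (0.164).

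MT3, the metallothionein first described in brain, did not pass (log2 fold change 0.21, limma adjusted p = 0.642). Its probe stood between 0.60 (A1) and 1.62 (M2) in sictrl and between 1.03 (A3) and 1.72 in siUCA1, so that the groups overlapped. Without sictrl A1 the log2 fold change was -0.02. MT1IP, MT1DP and MT4 were not well above background on any array.

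MTF1, the metal-sensing activator of the family (A_33_P3294237, NM_005955), moved the other way. It stood at 1.07, 1.34, 1.24 and 1.46 in sictrl A1, M2, A2 and A3, and at 1.56, 1.76, 1.68 and 1.71 in siUCA1 A1, M2, A2 and A3. All siUCA1 arrays were above all sictrl arrays, the nearest being sictrl A3 and siUCA1 A1, the 2 arrays with a strong surface trend. The share of all probes that separated in this direction was not computed. MTF1 rose by a log2 fold change of 0.40 (standard error 0.11, limma adjusted p = 0.0479), or 1.32-fold. The call is close to the threshold, and it was lost without sictrl A1 (0.112), M2 (0.101) or A2 (0.127) and without siUCA1 M2 (0.123), A2 (0.123) or A3 (0.105). It was also lost with median scaling (0.552), normexp (0.208), no detection filter (0.51) and the slide row as a block (0.0786), and the fold change stayed positive, between 0.30 and 0.50.

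**Figure D4:**
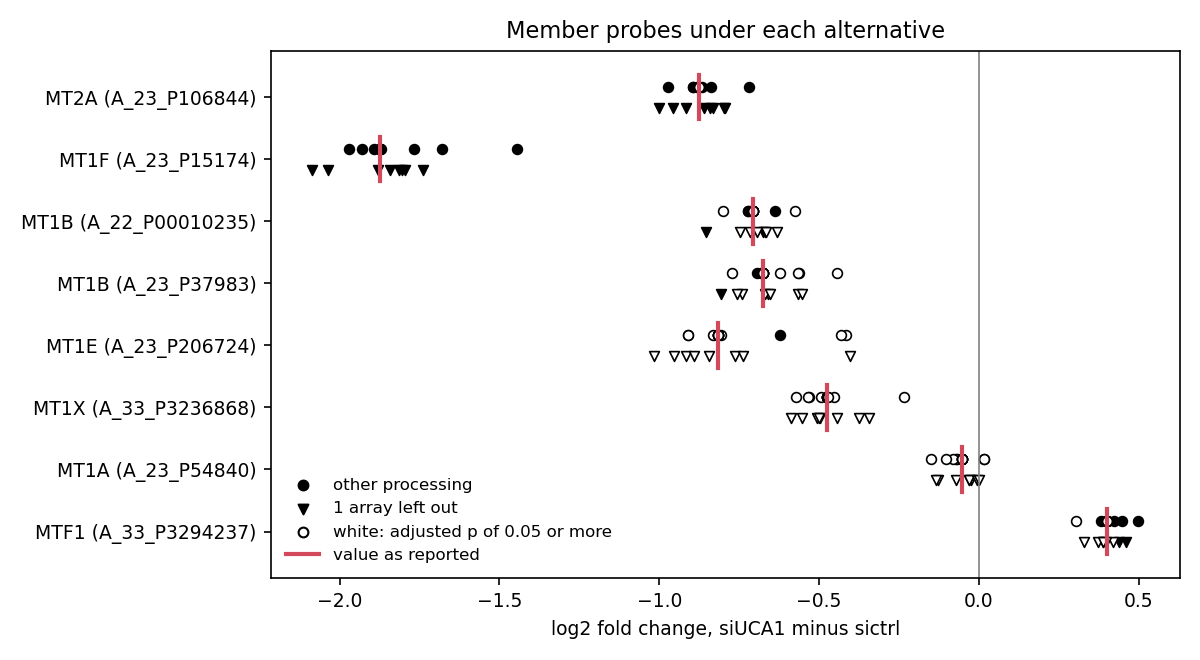
Log2 fold change of siUCA1 against sictrl for the 8 tested member probes under each alternative in processing (circles) and with 1 array left out (triangles), filled where the adjusted p was under 0.05, with the value as reported as a red line. MT1F is filled throughout, MT2A in all but 1 setting, and the points of MT1A reach both sides of 0.

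Genes of metal handling and related lists were counted by their brightest tested probe, beside the 15454 genes in all, of which 5.8% were lower and 5.65% higher, 11.4% in either direction, with a median log2 fold change of 0.03. Counts with other settings are to be read against the share of all probes called there. This was 14.3% lower and 15.7% higher with array weights and 11.2% lower and 12.4% higher without sictrl A3 and siUCA1 A1 together. It was 5.9% lower and 7.52% higher without sictrl A3, 8.1% lower and 6.39% higher without siUCA1 A1, and 7.3% lower and 6.6% higher with the remaining surface trend removed. It was smaller with median scaling (2.72% lower and 0.677% higher), normexp (1.42% and 0.872%) and no detection filter (0.0945% and 0.055%), and without any 1 of the other 6 arrays (2.65% to 3.86% lower and 2.19% to 3.35% higher). No list count stands for a test of the list.

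SLC30A1, the zinc exporter that MTF1 also controls, was at 3.07, 3.24, 3.23 and 3.03 in sictrl A1, M2, A2 and A3 and at 3.70, 3.51, 3.56 and 3.41 in siUCA1 A1, M2, A2 and A3. All siUCA1 arrays were higher, opposite in direction to MT1F and MT2A. How many of all probes separated upward was not computed. It rose by 0.40 (limma adjusted p = 0.0382), and the call was lost without sictrl A1 (0.0967), M2 (0.0752), A2 (0.0795) or A3 (0.0575) and without siUCA1 A1 (0.0522), M2 (0.0849), A2 (0.105) or A3 (0.0501). It was also lost with the slide row as a block (0.0561), the replicate name as a block, median scaling (0.552), normexp (0.427) and no detection filter (0.483). SLC30A1 was the 1 gene called among 5 zinc exporters (SLC30 family) tested, and 0 were lower, against 5.65% of all genes higher. With array weights and without sictrl A3 and siUCA1 A1 together 2 were higher and 1 lower, and with the remaining surface trend removed 1 was higher and 1 lower.

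Of 11 zinc importers (SLC39 family) tested, 2 were lower, 0 higher, and the median log2 fold change was -0.20, against 5.8% of all genes lower. The count of lower importers was 5 with array weights (14.3% of all probes lower) and without sictrl A3 and siUCA1 A1 together (11.2%), 3 without either of these arrays alone, 0 with no detection filter (0.0945%), and 1 with median scaling (2.72%), with normexp (1.42%) and without sictrl A1, M2 or A2 or siUCA1 M2 or A2 (2.65% to 3.86%). SLC39A11 fell by 0.84 (limma adjusted p = 0.00436) in non-overlapping groups, and lost the call only with no detection filter (0.101). SLC39A9 fell by 0.89 (limma adjusted p = 0.0245), but not without sictrl A1 (0.0629), M2 (0.0729) or A2 (0.0766) or siUCA1 M2 (0.054) or A2 (0.0734), nor with median scaling (0.0856), normexp (0.182) and no detection filter (0.219). Its call was also lost with the replicate name as a block (limma adjusted p = 0.0558). SLC39A10 (-0.20, limma adjusted p = 0.485) did not pass and ranged from -0.31 without siUCA1 A1 to -0.08 without sictrl A3. SLC39A14 (-0.35, limma adjusted p = 0.175) passed without sictrl A3, its lowest sictrl array (-0.51, adjusted p = 0.0096), without sictrl A3 and siUCA1 A1 together (0.00584) and with array weights (0.00377).

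Of 14 copper handling genes tested, 1 was lower and 0 higher, and the median log2 fold change was 0.03, against 5.8% lower and a median of 0.03 over all genes. With array weights, 2 were higher (15.7% of all probes), and 1 was without sictrl A3, without sictrl A3 and siUCA1 A1 together and with the remaining surface trend removed. The 1 lower gene was COX11, a copper chaperone of cytochrome c oxidase, which stood between 5.04 and 5.14 in sictrl and between 4.17 and 4.50 in siUCA1. It fell by 0.78 (limma adjusted p = 0.00397), a call lost only with no detection filter (0.105). The copper importer SLC31A1 had overlapping groups and a log2 fold change of -0.12 (limma adjusted p = 0.49), which ranged from -0.22 with median scaling to -0.06 without sictrl A1.

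Of 15 genes that respond to metals or oxidants, 1 was higher and 1 lower, against 11.4% of all genes called. Without siUCA1 A1, 3 were higher and 3 lower, without sictrl A3 3 were higher and 1 lower, and without both arrays (11.2% lower and 12.4% higher over all probes) or with array weights (14.3% lower and 15.7% higher) 5 were higher and 3 lower. With the remaining surface trend removed 3 were higher and 2 lower, and with median scaling (2.72% lower and 0.677% higher over all probes) or no detection filter (0.0945% and 0.055%) 0 were called. SLC7A11, which imports cystine for glutathione, stood at 2.49, 2.15, 2.01 and 2.68 in sictrl A1, M2, A2 and A3, and at 3.23, 3.29, 3.11 and 3.76 in siUCA1 A1, M2, A2 and A3. Every siUCA1 array was above every sictrl array, an upward separation whose share over all probes was not computed. SLC7A11 rose by 1.02 (limma adjusted p = 0.0126), a call lost with median scaling (0.0511) and no detection filter (0.138). HMOX1, heme oxygenase, induced by heavy metals, was at 5.18, 5.35, 5.63 and 6.36 in the sictrl arrays and at 6.43, 6.34, 6.26 and 7.14 in the siUCA1 arrays. Its groups overlapped only through sictrl A3, and the log2 fold change of 0.91 did not pass (limma adjusted p = 0.0719). It passed without sictrl A3 (1.15, limma adjusted p = 0.018), without sictrl A3 and siUCA1 A1 together (0.0176), with array weights (0.00631) and with the replicate name as a block.

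SELENOW, a selenoprotein gene, fell by 0.46 (limma adjusted p = 0.0243) and lost the call without sictrl A1 (0.0683), sictrl A2 (0.0722), siUCA1 M2 (0.0726) or siUCA1 A2 (0.0828), and with median scaling (0.185), normexp (0.179) and no detection filter (0.374).

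Glucocorticoids are another known inducer of MT2A. Of 8 glucocorticoid-responsive genes tested, limma called 0 in either direction, with log2 fold changes from -0.35 to 0.39, against 11.4% of all genes called. It called 2 higher without sictrl A3, 1 lower without siUCA1 A1, 2 higher and 1 lower without both (11.2% lower and 12.4% higher over all probes), and 2 higher and 2 lower with array weights (14.3% lower and 15.7% higher). The log2 fold change of TSC22D3, an early target of the glucocorticoid receptor, was -0.26 (adjusted p = 0.416), and between -0.36 and -0.09 in the alternatives. In the chromosome 16 neighbourhood of the metallothionein cluster, 0 of 8 tested genes were called, against 1 lower without sictrl A3, and 1 lower and 1 higher with array weights and without sictrl A3 and siUCA1 A1 together. Their log2 fold changes ranged from -0.38 to 0.76 with a median of 0.02.

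**Figure D5:**
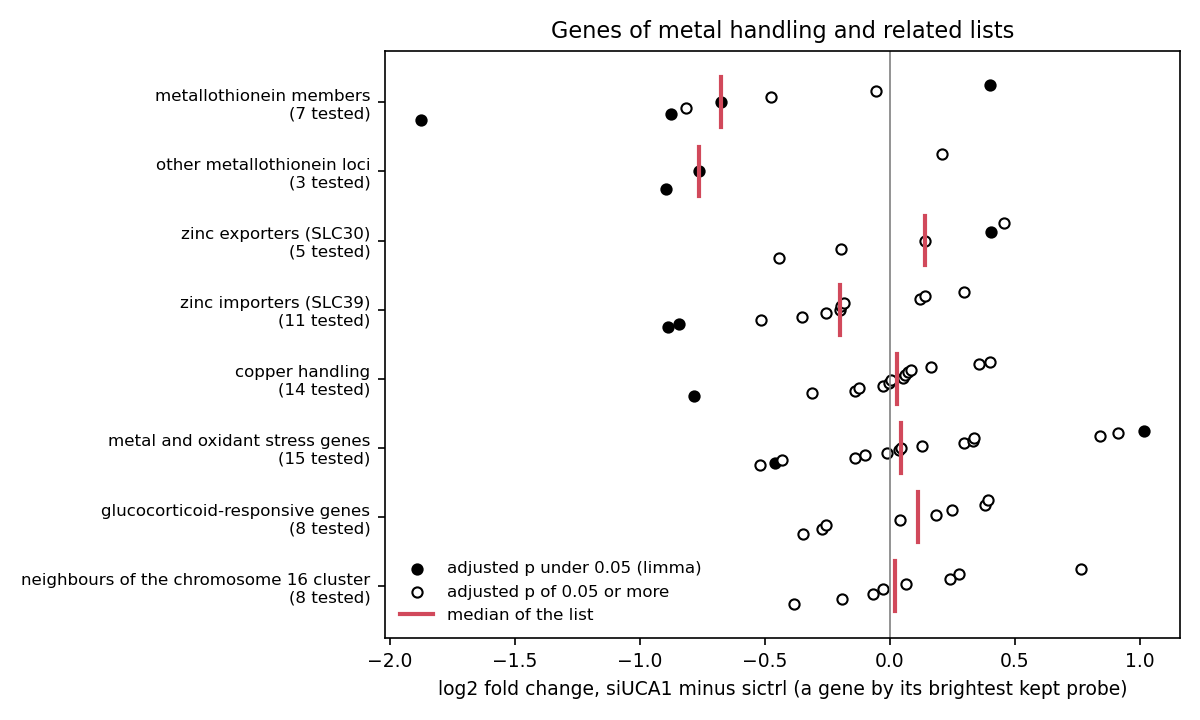
Log2 fold change of siUCA1 against sictrl for each tested gene of 8 lists, a gene by its brightest tested probe, filled where the limma adjusted p was under 0.05, with the median of each list as a red line. The medians of the metallothionein members (-0.68) and of the other metallothionein loci (-0.76) are the lowest, and the other 6 lie between -0.20 and 0.14.

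The 5 genes whose pattern over the 8 arrays was most like the mean of the 7 metallothionein probes were GAL3ST1 (Pearson's r = 0.994), HOXC6 (0.992), PCYOX1L (0.983), ANKRD2 (0.983) and RBM19 (0.979), out of 15481 candidates among the tested probes with a gene symbol. They were picked for this likeness, and both the difference between the groups and the low value of sictrl A1 enter into it. GAL3ST1 stood at 2.85, 3.27, 3.30 and 3.24 in sictrl A1, M2, A2 and A3 and at 1.97, 2.30, 2.66 and 2.57 in siUCA1 A1, M2, A2 and A3. As with the mean of the 7 metallothionein probes, replicate A1 was lowest in both groups.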

How the data were processed

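RNA of 8 cultures was measured on 1-colour Agilent arrays, 1 array each. The intensity values the authors deposited are processed signals from Feature Extraction 10.7.3.1, with background subtracted and a surface trend removed. The value table of the whole series holds the same numbers and was not used again. Spots marked as outliers were left out, 76 to 132 of 60901 non-control spots an array, and no spot was saturated. From 20858 to 24039 spots an array were well above background.

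Log2 values minus the 75th percentile of all non-control spots were averaged over the spots of a probe. Probes were named by accession through the RefSeq table of GRCh38.p14, which matched 31104 of 58201 probes and 15499 of the 19045 tested. Groups were compared with limma 3.58.1 in R 4.3.3 and its data.table package, 1.17.8, with Benjamini-Hochberg adjustment and a threshold of 0.05, and the code was tested on simulated data. Exact permutation tests were 2-sided. Python 3.11.15 with matplotlib 3.10.9 searched promoters and drew figures. The p-values measure the spread between these cultures of 1 cell line.

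Named genes are all members, UCA1, at most 4 called genes per direction in each list, SLC30A1, SLC39A10, SLC39A14, SLC31A1, HMOX1 and TSC22D3, and the 5 genes most like the family mean. The other metallothionein loci with a probe and some of the cell type markers are also named, called or not. The lists were other metallothionein loci, zinc exporters, zinc importers, copper handling, metal and oxidant stress, glucocorticoid response, neighbours of the cluster and cell type markers. Members and lists were chosen with earlier results of these data known. A gene in a list is represented by its brightest tested probe.

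Alternatives tried were quantile normalization, median scaling, the 75th percentile over probes well above background on all 8 arrays, normexp applied to median signals of spot and background (offset 50), no detection filter, a filter on all 8 arrays, dim values raised, 1 probe per gene, blocks for the replicate name or slide row, removal of the remaining surface trend in tiles, a variance trend with robust settings, array weights, outlier spots kept, each array left out, and sictrl A3 and siUCA1 A1 left out together.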

Additional observations from a re-analysis of the deposited data

Results flagged for a closer look

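An array was singled out where it lay far from the other 3 of its group, relative to the range of the group. Chance does this in about 1 in 20 groups, and here it occurred in 9 of the 70 groups checked (12.9%).

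In sictrl A1, MT1F was at 1.22 with the other sictrl arrays at 2.03 to 2.09, and MT1A was at 3.91 with the others at 4.20 to 4.21. GAL3ST1 (2.85 against 3.24 to 3.30), ANKRD2 (2.03 against 2.64 to 2.74) and RBM19 (-0.20 against -0.07 to -0.06) were low in the same array, and these 3 were picked for their likeness to the metallothionein mean.

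In sictrl A3, the MT1G probe was at -2.81 with the others at -5.16 to -4.77, and SLC39A14 was at 2.47 with the others at 3.11 to 3.12. In siUCA1 A2, the MT1E probe A_21_P0000671 was at -3.30 with the others at -5.03 to -4.93, and the MT1H probe was at -4.23 with the others at -5.30 to -5.12. The MT1G, MT1H and A_21_P0000671 probes were not well above background on any array.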

How the results depend on the processing

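UCA1 was lower in all settings, with log2 fold changes of its brighter probe from -5.46 to -4.85 (-5.28 to -4.85 with 1 array left out) and of its other probe from -4.96 to -4.29. MT1F was called lower in all of them, MT2A in all but 1. No metallothionein probe was called higher in any setting.

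The count of all probes past the threshold, 2189, was 647 with median scaling, 436 with normexp, 87 with no detection filter, 5723 with array weights, 4665 without sictrl A3 and siUCA1 A1 together, and 943 to 2794 with 1 array left out. Of the 4 metallothionein probes called lower, 2 remained with median scaling, 2 with normexp, 1 with no detection filter, and 2 to 4 with 1 array left out. The cause was not tested.

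MT1A turned positive with array weights (0.0148) and without sictrl A3 and siUCA1 A1 together (0.0165), and ranged from -0.13 to 0.0014 with 1 array left out. MT3 ranged from -0.022 to 0.37 with 1 array left out. The difference of MT1E from MT2A was -0.030 with the remaining surface trend removed, and -0.058 to 0.39 with 1 array left out. The cause was not tested.

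With the replicate name as a block, 2059 probes passed and 4 metallothionein probes were lower. In the same fit the limma adjusted p was 0.0558 for SLC39A9, 0.0602 for SLC30A1 and 0.0207 for HMOX1, and no other named gene changed its call. Of the lists, that fit called 0 zinc exporters higher, 1 zinc importer lower, and 1 copper handling, 2 metal and oxidant stress and 1 glucocorticoid-responsive gene higher. Arrays of the same name correlated at 0.023 to 0.271 after group means were removed, over 0.1 for 2 of 4 pairs. Pairs of unlike names correlated at -0.314 to 0.208, over 0.1 for 4 of 12. In siUCA1, M2, A2 and A3 each correlated best with the sictrl array of their own name. The siUCA1 A1 array correlated best with sictrl A3 (0.198), the other array with a strong surface trend. These correlations neither establish nor exclude a pairing by name.

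Signal over background limits the values for MT1G, MT1H and MT1M, so that a difference between the groups was not measured for them. Binding of a probe to the RNA of another metallothionein was not tested, since no probe sequences were at hand.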
